A study of Mus musculus with 4 samples.

Results

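Outside the large Dlk1-Dio3 domain, a small number of mouse miRNAs come from imprinted loci, where the copy inherited from the mother and the copy inherited from the father are not used equally. The miRNAs described here are miR-335 of the Mest locus, miR-296 and miR-298 of the Gnas/Nespas locus, miR-483 of the Igf2 locus and miR-675 of the H19 locus. They were chosen by name, with any arm of the hairpin, and not by their levels, although earlier results of these data were known. They were measured by 8 of the 599 probes of the panel, of which 566 target mouse miRNAs and 33 target viral miRNAs, and these 8 probes cover 5 precursors.

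The NanoString nCounter assay was used, in which each mature miRNA is counted through a barcoded probe without amplification. The samples were mouse embryonic stem cells (ESCs) of the R1 line (WT, n = 2) and R1 cells in which the genes of the 3 DNA methyltransferases Dnmt1, Dnmt3a and Dnmt3b are knocked out (TKO, n = 2). The labels call the replicates biological, describe culture on gelatin with serum and LIF for both genotypes, and also state that all 4 samples were differentiated for 4 days before RNA isolation. The number of TKO clones behind the replicates is not given in the sources used here, so genotype and any difference between the lines cannot be told apart. The comparison asks whether the levels of imprinted miRNAs differ in cells that cannot methylate their DNA.

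Imprinting rests on DNA methylation that is placed on a control region in the germ line of one parent and is then kept through cell division by DNMT1. At Igf2 and H19 the control region carries methylation on the paternal copy, H19 is expressed from the maternal copy and Igf2 from the paternal copy. At Mest and at the Gnas locus the germ line methylation lies on the maternal copy, and Mest and the antisense transcript Nespas are expressed from the paternal copy. Mest encodes a hydrolase-like protein, Igf2 a fetal growth factor, Gnas the alpha subunit of the stimulatory G protein, and H19 is a noncoding RNA. A count of a mature miRNA does not tell the parental copies apart.

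The mature sequences below are shown because the probes are named by miRNA and arm and because the arms of a hairpin are compared further on. They are the RefSeq sequences in GRCm38.p6, written 5′ to 3′, with the seed (bases 2 to 8, the stretch that pairs with target mRNAs) in capitals. The probe names of miR-298 and miR-483 carry no arm, so both arms are given for these precursors.
miR-335-5p: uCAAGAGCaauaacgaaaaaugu
miR-335-3p: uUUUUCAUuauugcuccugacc
miR-296-5p: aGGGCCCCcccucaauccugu
miR-296-3p: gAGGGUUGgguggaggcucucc
miR-298-5p: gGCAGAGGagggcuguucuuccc
miR-298-3p: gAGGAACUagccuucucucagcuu
miR-483-5p: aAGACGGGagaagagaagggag
miR-483-3p: uCACUCCUccccucccgucuu
miR-675-5p: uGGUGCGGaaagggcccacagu
miR-675-3p: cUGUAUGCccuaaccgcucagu

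The 10 arms have 10 different seeds, and none of these seeds occurs in another mature miRNA of the RefSeq table. The precursors lie on 3 chromosomes. The precursor of miR-335 (chr6:30741299-30741396, plus strand) lies within the span of Mest, that of miR-483 (chr7:142654924-142654996, minus strand) within the span of Igf2, and that of miR-675 (chr7:142577064-142577147, minus strand) within the span of H19. The miR-483 and miR-675 precursors are 77777 bp apart. The precursors of miR-296 (chr2:174267047-174267125, minus strand) and miR-298 (chr2:174267504-174267585, minus strand) are 379 bp apart. Both lie outside the annotated spans of Gnas and of Gnasas1, the symbol under which Nespas is listed, and are 14112 and 13652 bp from the latter. The annotation used here gives gene spans alone, and whether a precursor is exonic or intronic was not read from it.

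The hairpins of miR-335 and miR-675 are shown next, with both mature arms in capitals, because the 3 largest differences between the genotypes were those of both arms of miR-335 and of miR-675-3p, the last at a level far below background.
mir-335: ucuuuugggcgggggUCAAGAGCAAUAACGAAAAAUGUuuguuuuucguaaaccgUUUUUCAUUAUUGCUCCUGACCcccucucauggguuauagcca
mir-675: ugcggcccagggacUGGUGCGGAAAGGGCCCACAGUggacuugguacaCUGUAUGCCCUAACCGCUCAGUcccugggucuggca

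The study sorted precursors mainly by CpG methylation in the regions flanking them in WT ESCs. CG was counted in the hairpins themselves, and this count measures neither those regions nor methylation. The letters CG, which read the same on both strands, occurred in 4 of the 5 hairpins and in 66.6% of all 997 distinct mouse hairpins in the table. The mir-335 hairpin held 4, that of mir-675 held 3, that of mir-483 held 2, that of mir-296 held 1 and that of mir-298 held 0. Per length, mir-335 (4.12 per 100 dinucleotides), mir-675 (3.61) and mir-483 (2.78) exceeded 83.5%, 80.5% and 72.7% of all hairpins, whose median was 1.43. Below that median were mir-296 (1.28, above 46.3% of all hairpins) and mir-298 (0). A relation between these counts and the differences between the genotypes was not tested. In the study's list of mouse precursors, mir-335 is in the flat group (no difference in methylation at the borders), which the study counts as unmethylated. In the same list mir-296 and mir-298 are in the downstream group (methylated at the 3′ border) and mir-483 is in the upstream group (methylated at the 5′ border). No group is listed there for mir-675.

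The total of the counts recovered from the deposited values was 551277 and 613666 in WT against 511661 and 538367 in TKO cells. The viral probes served as an estimate of background, and their mean plus 2 SD was 69.2 normalized counts. Of the mouse probes 42.0% had a mean above it, among them 5 of the 8 probes described here. The ESC miRNAs of the miR-290 to miR-295 family made up 338120 and 332117 normalized counts in WT against 271498 and 295039 in TKO cells, summed over 11 probes, of which 8 were above background. Their log2 differences (TKO minus WT) ran from -0.41 (miR-293) to 0.19 (miR-290-5p), with miR-290-3p (0.082) also positive and the others negative. The normalized total of all probes was 589956 and 596052 in WT against 505671 and 577130 in TKO cells. None of the 5 probes for liver and muscle miRNAs was above background, as against 3 of 5 for fibroblast miRNAs, 3 of 5 for blood miRNAs and the probe of the neuronal miR-124. The summed level of the fibroblast probes was 525 and 481 normalized counts in WT against 423 and 422 in TKO cells. That of the blood probes was 1379 and 1277 in WT against 1450 and 1621 in TKO cells. Both sums cover mixed directions. The log2 differences (TKO minus WT) of the blood probes were 0.63 for miR-142-3p, 0.28 for miR-142-5p, -1.18 for miR-150, -0.64 for miR-223 and -0.021 for miR-451. Those of the fibroblast probes were 0.22 for miR-214, -0.69 for miR-199a-3p, -0.12 for miR-199a-5p, -0.29 for miR-145 and -0.011 for miR-143. miR-124 had a mean of 478.6 in WT and 133.2 in TKO cells. In the sums of the ESC, fibroblast, blood and neuronal lists the samples of the genotypes did not overlap. Taken singly, 53.4% of all mouse probes did not overlap either, 17.3% being higher and 36.0% lower in TKO cells. The part of these lists in the values below was not tested.

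Both arms of miR-335 of the Mest locus had higher counts in each TKO sample than in each WT sample, and neither passed the test after adjustment. The normalized counts of miR-335-5p were 176 and 126 in WT against 292.5 and 325 in TKO cells. The lowest TKO value was well above the highest WT value, and the 95% Poisson intervals of the counts, which cover counting error only, ended at 205 and 150 in WT and began at 260 and 289 in TKO cells. The mean was 151 ± 34.8 in WT and 309 ± 22.8 in TKO cells (SD, n = 2 each). The log2 difference (TKO minus WT, after adding 1 to the normalized counts) was 1.04 (SE 0.22), a 2.06-fold level with a 95% interval of 1.38 to 3.09. The adjusted p from limma with Benjamini-Hochberg adjustment over all mouse probes was 0.0671, against a threshold of 0.05 (unadjusted p = 0.00676 from limma). In RNA of whole cultures, more miRNA in each cell and more cells with the miRNA cannot be told apart.

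The levels of miR-335-3p were 143 and 128 normalized counts in WT against 223.3 and 192 in TKO cells, again without overlap. Its means were 135.8 ± 10.7 in WT and 208 ± 22.2 in TKO cells (SD, n = 2 each). The log2 difference was 0.61 (SE 0.17), a 1.52-fold level with a 95% interval of 1.11 to 2.08 and an adjusted p of 0.132 from limma (unadjusted p = 0.0191). Of the 566 mouse probes, 22 had a larger positive difference than miR-335-5p and 42 a larger one than miR-335-3p. Within the flat group of 231 probes, whose median difference was -0.11, these numbers were 9 and 16. In the order of levels miR-335-5p was at place 144 of 566 in WT and 92 in TKO cells, and miR-335-3p at 155 and 120.

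Whether limma called miR-335 depended on the model. miR-335-5p passed the threshold when the spread was allowed to follow the level (intensity trend, adjusted p = 0.0130 from limma), with voom, which weights the recovered counts by their precision (adjusted p = 0.0105), and among probes above background only (adjusted p = 0.0156), and miR-335-3p passed in the same fits (adjusted p = 0.0420, 0.0453 and 0.0303 in that order). These fits called 14.8%, 15.0% and 31.1% of the probes they tested. With a pseudocount of 10 (adjusted p = 0.0379 from limma), with each sample divided by its sum (sum scaling, 0.0443) and with scaling to the viral probes (0.00226) miR-335-5p passed without miR-335-3p, in fits that called 10.1%, 7.77% and 10.1% of all mouse probes. When a sample was left out, 1 genotype kept 1 sample, so only the differences are given here. They lay between 0.81 and 1.28 for miR-335-5p and between 0.50 and 0.72 for miR-335-3p.

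**Figure D1:**
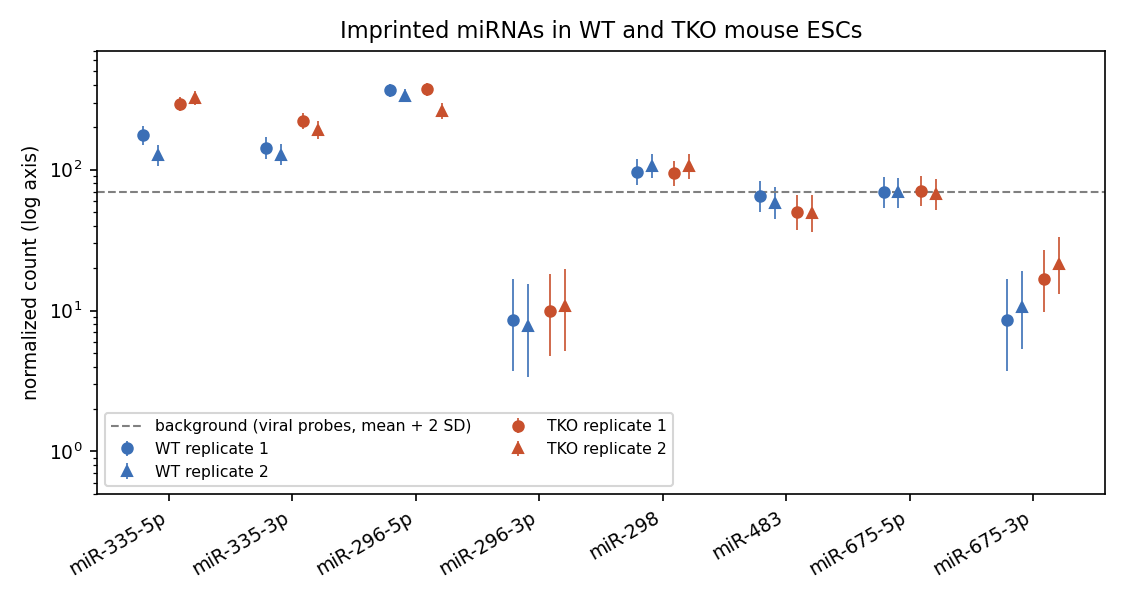
Normalized count (log axis) of each of the 8 probes in the WT (blue) and TKO (orange) replicates, with 95% Poisson intervals as bars and the background of the viral probes (69.2) as a dashed line. Both arms of miR-335 lie above background with the TKO values over the WT values, while the values of miR-298 and miR-675-5p overlap between the genotypes and miR-296-3p and miR-675-3p lie far below background.

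miR-675 is processed from the H19 transcript, and neither of its arms was called. The 5p arm was at 69.6 and 68.96 normalized counts in WT against 71.2 and 67.5 in TKO cells, so the genotypes overlapped. Its log2 difference was 0.0014 (SE 0.14), a 1.00-fold level with a 95% interval of 0.766 to 1.31 (adjusted p = 0.996 from limma). Its mean over the 4 samples lies at the background of 69.2, so that its level is barely resolved from the signal of probes without a target. The 3p arm was at 8.56 and 10.7 normalized counts in WT against 16.8 and 21.4 in TKO cells, without overlap and all below background. These values rest on 8 and 11 recovered counts in WT and 17 and 20 in TKO cells, and the 95% Poisson intervals of 3.70 to 16.9 and 5.33 to 19.1 in WT overlap those of 9.79 to 26.9 and 13.1 to 33.1 in TKO cells. The log2 difference was 0.92 (SE 0.21, adjusted p = 0.0790 from limma, unadjusted p = 0.00866). It passed the threshold with sum scaling (adjusted p = 0.0433 from limma) and with scaling to the viral probes (0.00974). A pseudocount of 10 brought it to 0.57.

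miR-483, whose precursor lies within the span of Igf2, was at 65.3 and 58.3 normalized counts in WT against 50.4 and 49.3 in TKO cells. Both TKO values were lower than both WT values, but all 4 samples lie under the background, and the 95% Poisson interval of the lower WT value (44.5 to 75.0) includes both TKO values. The log2 difference was -0.30 (SE 0.15, 95% interval -0.71 to 0.11, adjusted p = 0.320 from limma). It remained negative under all 13 alternatives in which it was tested, between -0.38 and -0.17. Of the 76 probes of the upstream group, 23 had a lower difference, and the median of that group was -0.12.

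No miRNA of the Gnas/Nespas locus was called, and the mean differences of miR-296-5p and miR-298 were smaller than the spread between replicates. miR-296-5p was the most abundant of the 8 probes in WT cells, at 368 and 336 normalized counts, and was at 372 and 262 in TKO cells. TKO replicate 1 was level with WT replicate 1 and TKO replicate 2 was lower than all other samples, so the groups overlapped. Its mean was 352 ± 22.7 in WT and 317 ± 77.8 in TKO cells (SD, n = 2 each), and the log2 difference was -0.17 (SE 0.23, 95% interval -0.78 to 0.43, adjusted p = 0.703 from limma). TKO replicate 2 sets its sign, since without that sample the difference was 0.079.

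miR-298, whose precursor is the closest neighbour of that of miR-296, was at 96.3 and 106.8 normalized counts in WT against 94.9 and 106.1 in TKO cells. Its log2 difference was -0.015 (SE 0.16, adjusted p = 0.989 from limma), and the 95% interval of 0.736 to 1.33 for the fold level bounds a change in either direction. Its sign turned under sum scaling, viral probe scaling and quantile normalization. miR-296-3p was at 8.56 and 7.77 normalized counts in WT against 9.88 and 10.7 in TKO cells, which rest on 8, 8, 10 and 10 recovered counts and lie below background. Its log2 difference was 0.30 with a limma adjusted p of 0.320, and although the groups did not overlap, the 95% Poisson intervals of all 4 samples did. In the downstream group of 82 probes the median difference was -0.16, with 42 probes higher than miR-296-5p and 24 higher than miR-298.

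The order of the levels over all 4 samples was miR-296-5p, miR-335-5p, miR-335-3p, miR-298, miR-675-5p, miR-483, miR-675-3p and miR-296-3p, at places 86, 115, 138, 187, 237, 271, 492 and 547 of the 566 mouse probes. In WT cells the neighbours miR-335-5p and miR-335-3p did not differ beyond their spread, since the value of miR-335-5p was higher in replicate 1 and lower in replicate 2. In TKO cells the 3p arm was the lower in both replicates, and miR-335-5p in replicate 2 (325) exceeded miR-296-5p (262). miR-675-5p and miR-483 were close in WT cells and did not overlap in either genotype. Probes bind with different efficiencies, so the order is that of the signals and not of the amounts of miRNA.

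**Figure D2:**
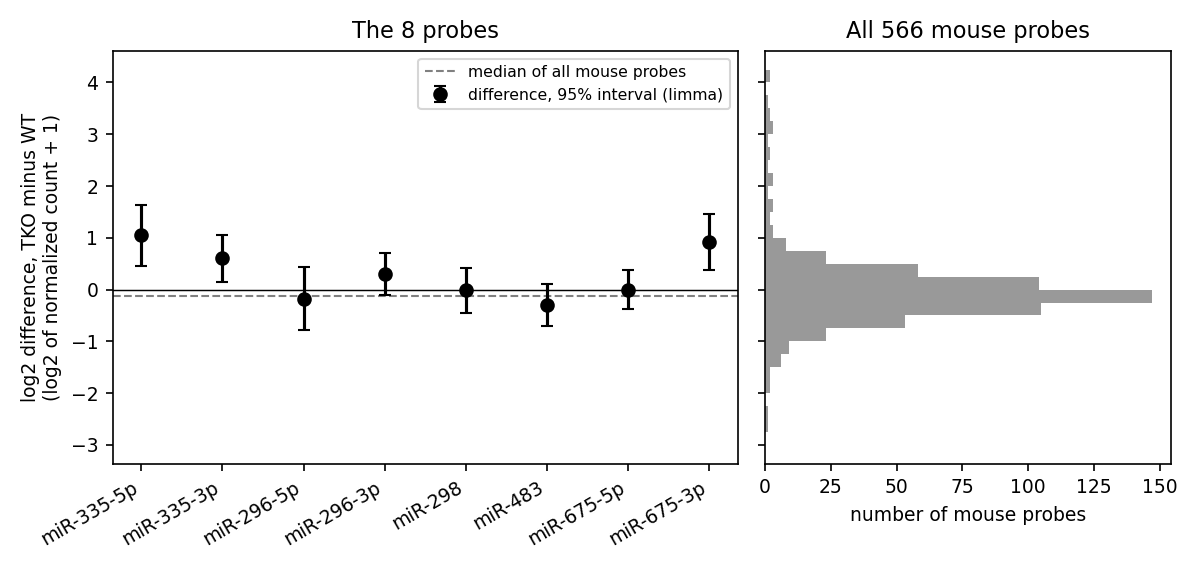
Left, log2 difference (TKO minus WT, log2 of the normalized count plus 1) of the 8 probes with 95% intervals from limma and the median of all mouse probes (-0.12) as a dashed line. Right, the differences of all 566 mouse probes on the same axis, in number of probes; the intervals of miR-335-5p, miR-335-3p and miR-675-3p do not include 0.

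Across the 8 probes limma called 0, against 8.48% of all mouse probes (48 of 566, with 4.24% higher and 4.24% lower). At an unadjusted p under 0.05 there were 3 of 8, all higher in TKO cells, against 23.5% of all mouse probes in either direction and 8.13% in the higher direction. voom on the recovered counts called 2 of 8, against 15.0% of all mouse probes in that fit. TKO values lay above both WT values in 4 of 8 probes, against 17.3% of all mouse probes, and below both in 1 of 8, against 36.0%. The arms of a hairpin share a transcript, so that these 8 probes are not 8 independent observations and the 4 higher ones come from 3 precursors. The median difference of the 8 probes was 0.15, with 5 positive and 3 negative, beside -0.12 for all mouse probes, with 217 positive and 349 negative. Among the 5 probes above background the median was 0.0014, beside -0.20 for the 238 mouse probes above background. That median is the value of miR-675-5p, whose level lies at the background. The others were miR-335-5p (1.04), miR-335-3p (0.61), miR-298 (-0.015) and miR-296-5p (-0.17).

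**Figure D3:**
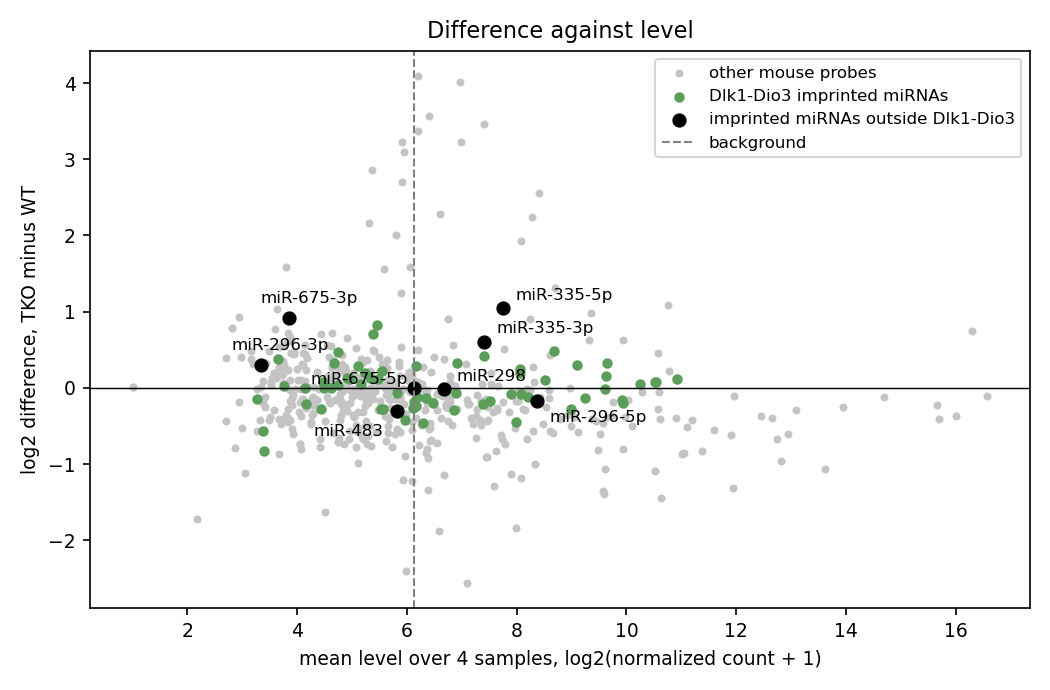
Log2 difference (TKO minus WT) against the mean level of the 4 samples in log2 units of the normalized count plus 1, for all mouse probes (grey), the Dlk1-Dio3 miRNAs (green) and the 8 probes described here (black), with the background as a dashed line. miR-335-5p and miR-335-3p lie above background at differences of 1.04 and 0.61, and miR-675-3p has a difference of 0.92 at a level far below it.

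The arms were then compared within each sample through the log2 ratio of the 5p to the 3p probe, which does not depend on the scaling of the sample apart from the pseudocount. This comparison was chosen after values had been seen, and 65 hairpins with both arms on the panel entered the limma fit, which called 1.54% of them. For miR-335 the ratio was 0.29 and -0.022 in WT against 0.39 and 0.76 in TKO cells, a change of 0.44 (SE 0.26, adjusted p = 0.488 from limma, 95% interval -0.21 to 1.09). The TKO ratios were higher than the WT ratios, but by less than the test could call, and the intervals for the change include 0 as well as a stronger difference on the 5p arm. For miR-675 the ratio was 2.88 and 2.58 in WT against 2.02 and 1.61 in TKO cells, a change of -0.92 (SE 0.26, adjusted p = 0.225 from limma, unadjusted p = 0.0156). For miR-296 it was 5.27 and 5.26 in WT against 5.10 and 4.49 in TKO cells, a change of -0.48 (SE 0.28, adjusted p = 0.488 from limma). The ratios of miR-675 and miR-296 rest on a 3p arm below background, where the ratio is not resolved.

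**Figure D4:**
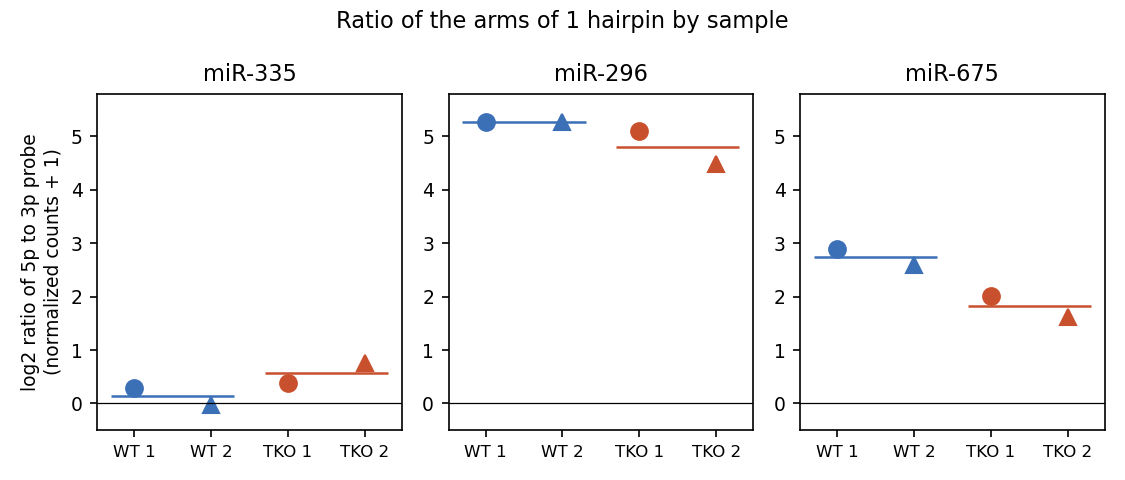
Log2 ratio of the 5p to the 3p probe (normalized counts plus 1) of miR-335, miR-296 and miR-675 in each sample, with WT in blue, TKO in orange and the group means as lines. The ratio of miR-335 is 0.29 and -0.022 in the WT samples and 0.39 and 0.76 in the TKO samples, and that of miR-675 is lower in both TKO samples (2.02 and 1.61) than in both WT samples (2.88 and 2.58).

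The probes with the most similar levels were found by Euclidean distance between the 4 log2 values. Of the 238 mouse probes above background, 10 were of proximal and 24 of distal Dlk1-Dio3 miRNAs, so some such neighbours can occur by level alone. For miR-335-3p the nearest was miR-411 of the distal Dlk1-Dio3 cluster (distance 0.243), at 143 and 148 normalized counts in WT against 215 and 176 in TKO cells. It was followed by miR-2146 (0.621). For miR-335-5p the nearest were miR-2140 (0.589) and its own 3p arm (0.898). For miR-296-5p they were miR-433 of the proximal Dlk1-Dio3 miRNAs (0.426) and miR-2134 (0.449), for miR-298 miR-31 (0.173) and miR-330 (0.275), and for miR-675-5p miR-494, also of the distal cluster, (0.214) and miR-1929 (0.215). Each distance rests on 4 samples and mainly reflects a like level.

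The other imprinted miRNAs give the frame for these values. Of the 18 probes for proximal Dlk1-Dio3 miRNAs limma called 0, with a median difference of 0.036 and 11 positive, and 1 higher and 0 lower at an unadjusted p under 0.05. Of the 44 probes for the distal Dlk1-Dio3 cluster limma called 0, with a median of -0.011 and 21 positive, and 3 higher and 0 lower unadjusted. The 33 probes of the miR-297, miR-466, miR-467 and miR-669 repeat family, many of whose copies lie in the imprinted gene Sfmbt2, had a median of -0.37 with 28 negative, and limma called 0 of them, with 1 higher and 9 lower unadjusted. With voom on the recovered counts it called 5 of these 33, 0 of 18 and 0 of 44, against 15.0% of all mouse probes, and at an unadjusted p under 0.05 the shares of all mouse probes were 8.13% higher and 15.4% lower. No probe of these 3 lists had a larger difference than miR-335-5p (1.04). In each list 1 probe had a larger one than miR-335-3p (0.61), namely miR-337-3p (0.71), miR-667 (0.82) and miR-466f-5p (0.67). These were chosen after their values were seen, and the mean level of each lies below background. Among probes above background the list medians were -0.13 (10 proximal), -0.068 (24 distal) and -0.43 (18 of the repeat family). That of all mouse probes above background was -0.20. No test between miR-335 and the lists was made.

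**Figure D5:**
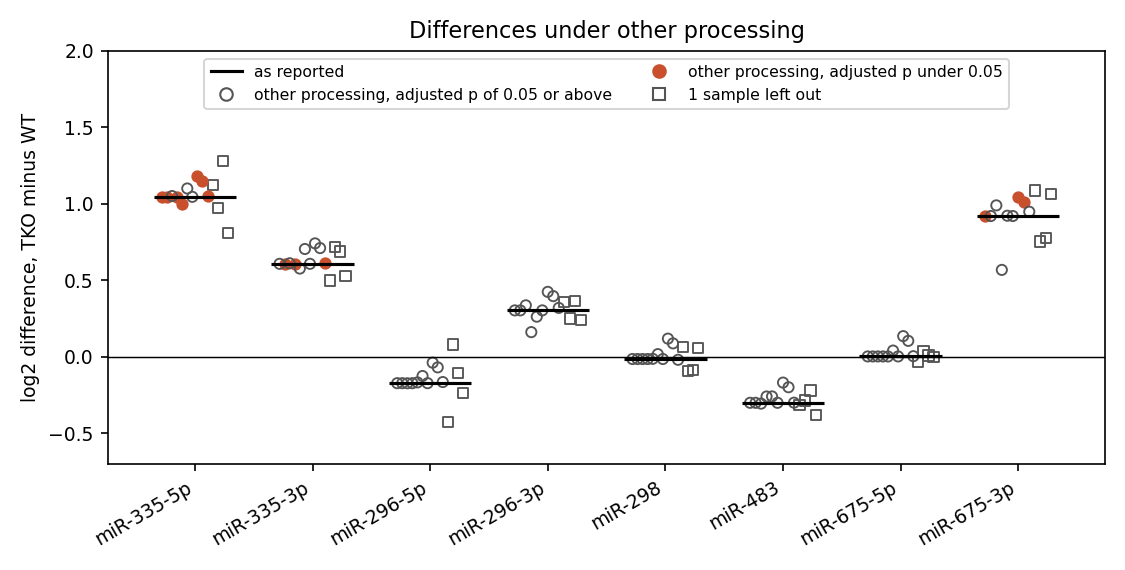
Log2 difference (TKO minus WT) of each probe as reported (black line), under other scalings, pseudocounts, filters and models (circles) and with 1 sample left out (squares), filled where the adjusted p from limma was under 0.05. The differences of both arms of miR-335 and of miR-675-3p stay above 0 and those of miR-483 below 0, while those of miR-296-5p, miR-298 and miR-675-5p fall on both sides.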

How the data were processed

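Total RNA of 2 WT and 2 TKO samples was profiled with the NanoString nCounter miRNA assay. The deposited log2 values were made by the authors with NanoString's nSolver software, whose version is not given in the sources used here, nor are the treatment of background and the probes that set the scaling. On the linear scale all values of a sample were whole multiples of 1 step (100% within 0.05), which gave the counts. Values were turned to normalized counts, 1 was added and log2 was taken again. limma 3.58.1 (R 4.3.3; lmFit and eBayes, genotype as the only term) was fitted over all 566 mouse probes with Benjamini-Hochberg adjustment and a threshold of 0.05. Background was set at 2 SD over the mean of the viral probes, and a probe was above it by its mean over the samples. Sequences and positions are from RefSeq (GRCm38.p6), where all 5 precursors matched by symbol. The miRNAs and lists were chosen with earlier results of these data known. All 8 probes are named, with the 2 nearest probes of each that was above background, and up to 3 called miRNAs of each comparison list, of which there were 0. The lists of miRNAs of other tissues (fibroblast, blood, liver, muscle, neuron) are given by counts and sums. Alternatives covered the pseudocount, the scaling, a filter on low levels, other variance models, the replicate block and each sample left out. On simulated counts of 566 probes with 200 changed by a factor of 2, limma recovered 79% of them with 4.82% false calls. Of the 77 changed probes above background it recovered 97.4%. The simulation changed far more probes than the 48 that limma called in the data. These shares check the procedure and do not give its power here. Other steps ran in Python 3.11.15 with pandas 2.3.3, numpy 2.4.6, matplotlib 3.10.9 and scipy 1.17.1.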

Additional observations from a re-analysis of the deposited data

How the results depend on the processing

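Among the 14 alternatives, the fits without a pseudocount, with quantile normalization and with the replicate block called none of the 8 probes. In the fits with a sample left out 1 genotype kept 1 sample, so only their differences are given. The number called was 1 with a pseudocount of 10. It was 2 with sum scaling, viral probe scaling, probes above background only, an intensity trend, voom on the recovered counts and a crossed replicate block. The log2 differences called were those of miR-335-5p (1.00, 1.18, 1.15, 1.04, 1.04, 1.05 and 1.04 in that order), miR-335-3p (0.61 among probes above background, 0.61 with a trend and 0.61 with voom) and miR-675-3p (1.04 with sum scaling, 1.01 with viral probe scaling and 0.92 with the crossed block). The difference of miR-298 turned to 0.12 with sum scaling, 0.087 with viral probe scaling and 0.016 with quantile normalization, and lay between -0.095 and 0.065 with a sample left out. With a sample left out, that of miR-296-5p lay between -0.43 and 0.079 and that of miR-675-5p between -0.036 and 0.039. The median of the 8 was 0.28 with sum scaling, 0.25 with viral probe scaling, 0.081 with a pseudocount of 10, 0.0014 over the 5 probes above background and 0.15 to 0.21 with a sample left out. These scalings moved the median of all mouse probes from -0.12 to 0.0089 and -0.022. Over all mouse probes limma called 48, and 84 with a trend, 85 with voom, 74 of the 238 above background and 30 with the replicate number as a block. The Sfmbt2-type family had 5 called with a trend, 5 with voom and 3 among probes above background, and the distal Dlk1-Dio3 cluster had 1 with viral probe scaling. The deviations of same-numbered samples had a correlation of -0.094 over all mouse probes and -0.24 over those above background, so the replicate numbers were not taken as pairs. The replicate block called 0 of the 8 probes (adjusted p = 0.118 for miR-335-5p from limma) and left each difference as it was, at 1.04 for miR-335-5p. The crossed pairing was chosen after seeing the data and called 64 of all mouse probes. The changes of the arm ratios kept their sign in all alternatives, which did not include voom and the trend. None was called in those without a sample left out. The cause of these shifts was not tested. Low counts limit miR-296-3p, miR-483 and miR-675-3p, which lie below background.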
